A study of Mus musculus with 32 samples.

Results

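The genes described here are the X-linked genes of TX1072 cells whose allelic balance could be read both in nascent and in mature RNA after 24 h of Xist induction, 231 of the 26440 genes in the nascent RNA table. TX1072 is a female mouse embryonic stem cell line, an F1 hybrid of C57BL/6 (B6) and CAST/EiJ (Cast), in which a promoter responsive to doxycycline drives Xist from the B6 X chromosome and rtTA, the transactivator that doxycycline switches on, sits in the Rosa26 locus. Nascent RNA was measured by PRO-seq, which maps engaged RNA polymerase, and mature RNA by mRNA-seq of polyadenylated transcripts. The groups compared are mature RNA after 24 h of 1 µg/ml doxycycline (2 libraries, replicates 1 and 2), mature RNA at 0 h without it (2 libraries), nascent RNA at 24 h (2 libraries, A and B) and nascent RNA at 0 h (2 libraries). All come from this 1 cell line, undifferentiated and grown in serum with LIF and 2i (a Gsk3 and a MEK inhibitor), so every group carries the inducible allele and rtTA and differs by doxycycline time and assay alone as far as the labels say. The labels do not say that replicates were separate cultures, so the p-values measure the spread between these libraries, which may be technical. The replicate numbers of the mRNA-seq libraries were assigned here from the tube order in their titles.

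A gene was taken when it lay on the X chromosome, averaged 20 or more allele-assigned reads in the 24 h PRO-seq libraries and averaged an RPKM (reads scaled by transcript length and library size) of 1 or more over the 4 mRNA-seq libraries. Of 902 X-linked genes in the PRO-seq table and 514 in the mRNA-seq table, 502 were in both, 311 of these had enough reads and 233 also enough RPKM. Trappc2 lacked a share in 1 library and Xist in 3, which left 231. Just inside the read limit were Rps6ka6 with 20.5 mean reads and Ndufb11 and Wdr13 with 21, and just outside it Fgf13 with 19.5, Xk with 18.5 and BC023829 with 18. Just inside the RPKM limit were 4933407K13Rik at 1.03 and Rbm41 at 1.08, and just outside it Mtmr1 at 0.956, Zdhhc15 at 0.917 and Shroom4 at 0.887. The limits use the sum of both alleles and not the allelic share. That sum at 24 h includes the B6 reads, so losing them could take a gene below the limits. For comparison, 9217 autosomal genes passed the same limits.

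X inactivation equalizes X-linked gene dose between female and male mammals. Xist, a long non-coding RNA, coats the chromosome that makes it, and transcription of most genes on that chromosome then stops. Engaged polymerase reports transcription at the moment of harvest, whereas polyadenylated RNA also holds transcripts made earlier and not yet degraded. The B6 share, the percentage of allele-assigned reads that carry the B6 allele, therefore follows silencing in each assay, because the Cast X carries no inducible Xist. The comparison asks in which genes the B6 share of mature RNA had fallen less, or more, than that of nascent RNA.

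Xist itself was at 31.7 and 45.9 RPKM in mature RNA at 24 h, against 0.0437 and 0.0563 RPKM at 0 h, and 26.8 and 30.3 RPKM in nascent RNA at 24 h, against 0.192 and 0.123 RPKM at 0 h. At 24 h, B6 reads made up 99.9% of Xist in both mature libraries and 98.6% and 99.7% in the nascent ones. The 7 embryonic stem cell markers looked at (Pou5f1, Nanog, Zfp42, Esrrb, Klf4, Tbx3 and Sox2) summed to 1684 to 1814 RPKM in mature RNA at 24 h, against 1643 to 1716 RPKM at 0 h. The 7 measured markers of differentiated or other cells summed to 19.5 RPKM in replicate 1 and 26.8 RPKM in replicate 2 at 24 h, against 24.99 and 37.1 RPKM at 0 h, and none was at 0. PRO-seq held 3041199 to 6443286 allele-assigned reads per library. The mRNA-seq shares come without counts, so the depth behind them is unknown and intervals are given for PRO-seq only. These are 95% Wilson intervals and cover counting error only.

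After 24 h the B6 share had fallen in mature and in nascent RNA alike, and the mature libraries lay on both sides of the nascent ones. The median B6 share of the 231 genes was 29.7% in mature replicate 1 and 37.0% in mature replicate 2 at 24 h, against 50.2% in both at 0 h. In nascent RNA it was 30.6% in library A and 30.5% in library B at 24 h, against 49.5% and 50.2% at 0 h. Autosomal medians lay between 50.6% and 52.1% in the 8 libraries. The 24 h mature libraries thus differed from each other by more than the nascent ones did, and replicate 2, with the higher B6 share, also had the higher Xist RPKM. Its other-cell markers summed to 26.8 RPKM, against 19.5 RPKM in replicate 1. Otx2 alone was at 11.1 and 1.57 RPKM, and 4 of the 7 markers were lower in replicate 2. At 0 h Otx2 was already at 12.6 RPKM in replicate 2 and 3.31 RPKM in replicate 1. The part of Xist level or of these markers in the share was not tested. These are bulk libraries, so complete silencing in some of the cells and partial silencing in each cell cannot be told apart.

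Relative to its own 0 h share, the median gene retained 59.3% and 71.7% of its B6 share in the mature libraries and 62.1% and 62.7% in the nascent ones. Over library means, single genes retained between 17.5% and 102% in mature RNA (median 65.7%) and between 14.8% and 151% in nascent RNA (median 62.8%). The share had fallen below 50% of its 0 h value in mature RNA for 53 genes and in nascent RNA for 49, and in both for 34. A gene low in one assay was mostly low in the other. Across the 231 genes the changes had a Spearman rho of 0.71, and 0.77 across those with 100 or more mean PRO-seq reads at both times (all but 87). The nascent changes of A and B had a rho of 0.61, and the mature changes of replicates 1 and 2 a rho of 0.84. The changes of a pair of libraries of 1 assay share their 0 h libraries, and genes are not independent replicates, so these are descriptions.

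**Figure D1:**
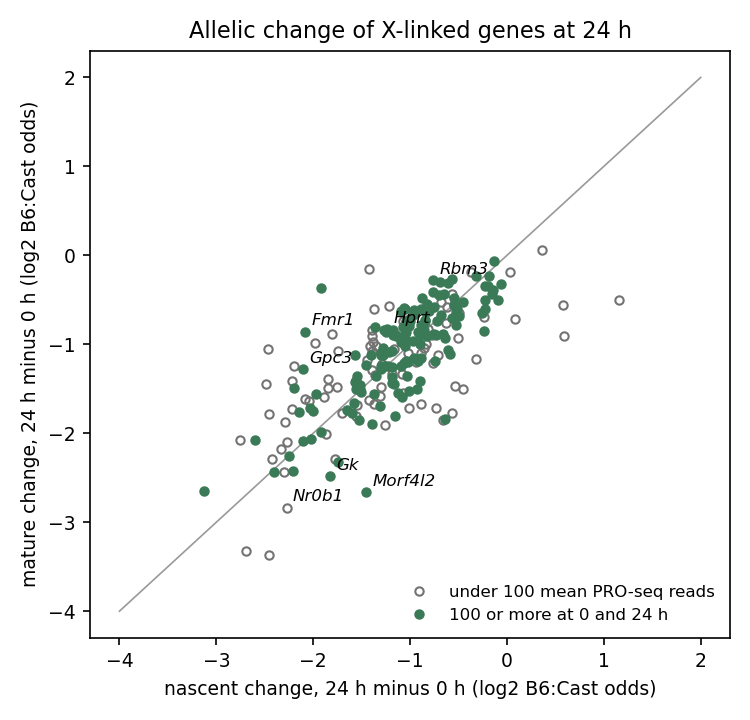
Each point is 1 of 231 X-linked genes, with the change of the log2 B6:Cast odds from 0 to 24 h in nascent RNA (x axis) and mature RNA (y axis), each the mean of 2 libraries. Filled points have 100 or more mean PRO-seq reads at 0 and 24 h (all but 87 genes), and the line marks equal change; Fmr1 and Gpc3 lie above it and Morf4l2, Gk and Nr0b1 below.

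In nascent RNA, 79 of the 231 genes (34.2%) lost B6 share by edgeR's quasi-likelihood test with Benjamini-Hochberg adjustment over 13616 genes, and 0 gained. Among all genes tested 0.793% were called lower and 0.0367% higher. The estimated nascent change was above 0 in 6 of the 231 genes (2.60%), against 54.7% of autosomal genes. By the alternative DESeq2 test 36 X-linked genes fell, against 105 of 334 by edgeR, and 46, 31, 53 and 46 fell without nascent 24 h A, 24 h B, 0 h A and 0 h B. In mature RNA, 0 of the 231 passed limma's adjusted threshold with the 4 libraries of 0 and 24 h (0.00% of all genes), although 199 (86.1%) were lower at an unadjusted p of 0.05 and 0 higher, against 4.19% and 1.83% of all genes. With all 12 undifferentiated mRNA-seq libraries in the fit, 79 of 275 X-linked genes passed limma's adjusted threshold, all lower. The shares of all genes called by these alternative fits are not given here. The median change of the log2 odds was -1.26 and -0.84 in mature replicates 1 and 2 and -1.08 and -1.12 in nascent A and B, and the autosomal medians lay within 0.05 of 0.

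The shares were also combined with the RPKM of each gene, to see which allele's RNA changed in level. The B6 part of mature RNA had a median log2 change of -1.48 in replicate 1 and -0.81 in replicate 2, against -1.06 and -1.10 for nascent RNA in A and B. The Cast part changed by -0.11 and 0.05 in mature RNA and by 0.07 in both nascent libraries. Total RPKM of the 231 genes changed by a median of -0.66 and -0.33 on the log2 scale in mature RNA and by -0.39 and -0.40 in nascent RNA. Lower levels from the B6 allele were found in 231 and 224 genes of the mature libraries and in 222 and 224 of the nascent ones. Autosomal medians lay within 0.04 of 0 on every one of these measures.

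**Figure D2:**
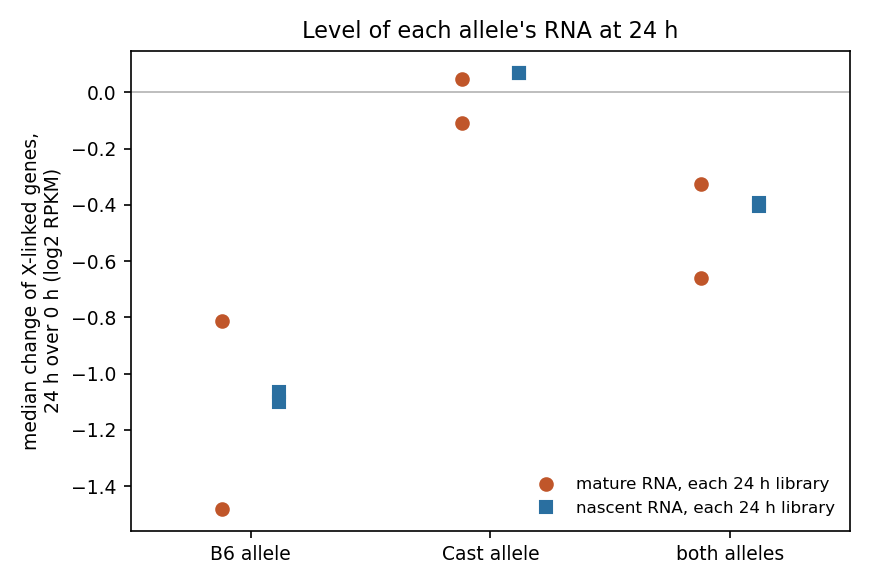
Median log2 change in RPKM from 0 to 24 h over 231 X-linked genes for the B6 allele, the Cast allele and both together, with 1 point for each 24 h library (mature RNA left, nascent RNA right). The B6 allele's level fell by 0.81 to 1.48 in mature RNA and by 1.06 to 1.10 in nascent RNA, and the Cast allele's lay between -0.11 and 0.07.

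The difference between the assays was taken per gene as the mature change minus the nascent change in log2 odds of B6 (0.01 added to either allele's share). A positive difference means that mature RNA kept more of the B6 allele than nascent RNA did. Its median over the 231 genes was 0.02, against -0.03 for autosomal genes, and 120 of the 231 (51.9%) lay above 0, against 46.4% of autosomal genes. The median depended on the mature library. Replicate 1 gave -0.30 against nascent A and -0.20 against nascent B, whereas replicate 2 gave 0.24 and 0.32, and 77, 72, 159 and 168 genes lay above 0 in these 4 pairs. The direction of the median at 24 h thus turned on which mRNA-seq library was read, and 2 libraries against 2 cannot give an exact permutation p under 0.05.

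No single gene passed the test of a difference between the assays at 24 h. By limma, 0 of the 231 genes had a higher and 0 a lower change in mature RNA after adjustment over 9448 genes (0.00% of all genes in each direction), and the smallest adjusted p among them was 1.00. At an unadjusted p of 0.05, 2 were higher and 6 lower, against 1.91% and 2.65% of all genes. The median standard error of the difference was 0.41 log2 units, so that a difference of that size was within the error of a typical gene. After the X-linked genes of each library were set to their own median, again 0 and 0 passed and 3 and 17 did so unadjusted (2.20% and 2.46% of all genes). This step set autosomal genes to the autosomal median and moved every X-linked difference down by the same amount (median -0.14), so the split between 3 and 17 is not independent of it. Counted by libraries, both mature changes lay above both nascent changes in 40 genes (17.3%, against 21.2% of all genes) and below both in 33 (14.3%, against 26.6%), and in 158 they overlapped. Neither share exceeded that of all genes.

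Nr0b1 and Hprt serve as the marker genes of this comparison. Nr0b1 encodes the orphan nuclear receptor DAX1, part of the pluripotency network of mouse embryonic stem cells (mm10, chrX:86191764-86195947, plus strand). Its B6 share was 9.23% and 15.1% in mature RNA at 24 h, against 49.6% and 51.9% at 0 h. In nascent RNA it was 13.9% (10 of 72 reads, interval 7.72 to 23.7%) and 10.4% (12 of 115 reads, interval 6.07 to 17.4%) at 24 h, against 41.8% and 40.9% at 0 h. Both assays had fallen far, the mature and nascent changes overlapped, and the difference of -0.56 ± 0.44 (SE) log2 units did not pass (limma adjusted p = 1.00). The nascent fall was called by edgeR (log2 odds -2.37 ± 0.47, adjusted p = 0.00534), though not by DESeq2 or without any 1 of the 4 libraries, where adjusted p-values lay between 0.068 and 0.448.

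Hprt encodes the purine salvage enzyme hypoxanthine phosphoribosyltransferase (chrX:52988137-53021659, plus strand). Its share was 40.9% and 46.4% in mature RNA at 24 h, against 57.3% and 59.0% at 0 h. In nascent RNA it was 36.1% (180 reads, interval 29.5 to 43.4%) and 31.3% (313 reads, interval 26.4 to 36.6%) at 24 h, against 54.4% and 55.4% at 0 h. Both mature libraries had fallen less than both nascent ones. Mature RNA retained 75.1% of its 0 h share and nascent RNA 61.4%, and the difference was 0.41 ± 0.24 (SE) log2 units (limma adjusted p = 1.00). The nascent fall of -1.28 ± 0.24 was called by edgeR (adjusted p = 0.00302) and was lost by DESeq2 (adjusted p = 0.137) and without nascent 24 h B, 0 h A or 0 h B.

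Further genes are named by the size of the difference among 133 genes with 100 or more mean reads, a 0 h share of 20 to 80% in both assays and 0 h shares within 15 points of each other. In 26 of the 133 both mature changes were above both nascent ones and in 15 below, where 21.2% and 26.6% of all genes were. The shares of all genes were taken without the limits of 100 reads and on 0 h shares. The 10 largest of each are plotted by library, and since they were chosen for this difference, their values are a description. None of them passed the adjusted threshold (limma adjusted p = 1.00 for each).

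**Figure D3:**
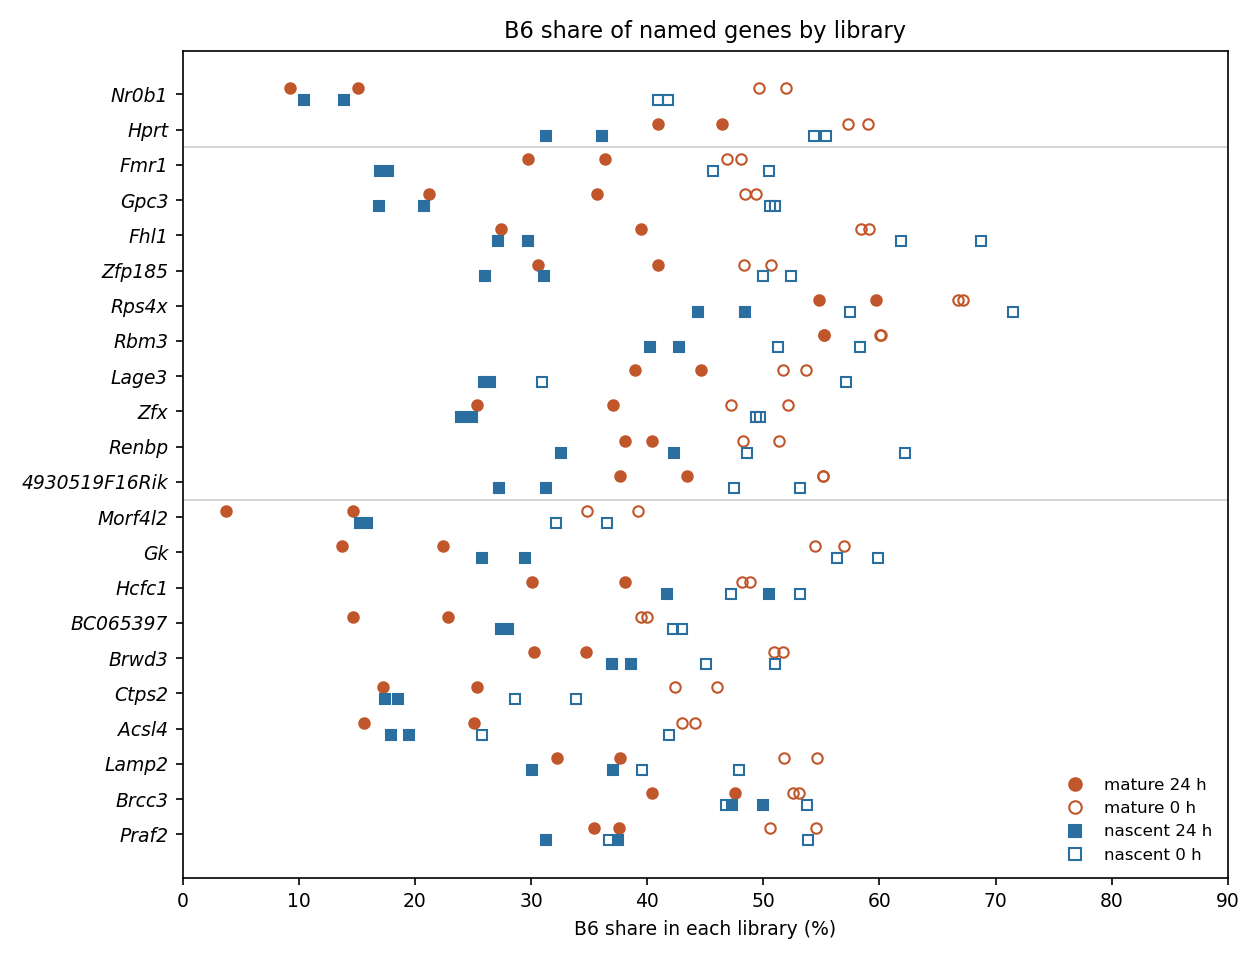
B6 share in each library for Nr0b1 and Hprt (top). The middle holds 10 genes whose mature RNA had fallen least relative to nascent RNA, and the bottom 10 whose mature RNA had fallen most. Both were taken among 133 genes within the limits on reads and 0 h shares. Only genes whose mature and nascent changes did not overlap were taken. Circles are mature RNA and squares nascent RNA, filled at 24 h and open at 0 h. In Fmr1 the filled circles lie at 29.7% and 36.4%, right of the filled squares at 16.98% and 17.6%, and in Morf4l2 at 3.71% and 14.7%, left of the squares at 15.2% and 15.8%.

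Fmr1, which encodes the RNA-binding translational regulator FMRP (chrX:68678541-68717963), had the largest difference of these, 1.23 ± 0.30 (SE) log2 units. Its B6 share was 29.7% and 36.4% in mature RNA at 24 h, against 48.1% and 46.9% at 0 h. In nascent RNA it was 17.6% (68 reads, interval 10.4 to 28.4%) and 16.98% (159 reads, interval 11.9 to 23.6%) at 24 h, against 50.5% and 45.7% at 0 h. Mature RNA thus retained 69.7% of its 0 h share and nascent RNA 36.0%, with no overlap between libraries at 24 h. Fmr1 was also among the 2 genes with an unadjusted p under 0.05 in this direction. Across 18 alternative settings the difference stayed between 1.01 and 1.44, with a smallest adjusted p of 0.243.

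Gpc3, which encodes the cell-surface proteoglycan glypican 3, had 515 and 1032 nascent reads at 24 h. Its share was 21.2% and 35.7% in mature RNA at 24 h, against 48.5% and 49.3% at 0 h, and 20.8% and 16.9% in nascent RNA at 24 h, against 51.0% and 50.6% at 0 h. Mature replicate 1 stood next to nascent A and replicate 2 well above both nascent libraries, and the difference was 0.83 ± 0.47. Fhl1, a LIM-domain protein gene, had 27.4% and 39.5% in mature RNA at 24 h, against 59.1% and 58.4% at 0 h, and 27.1% and 29.8% in nascent RNA at 24 h, against 68.7% and 61.8% at 0 h. Zfp185, a gene for an actin-associated LIM-domain protein, had 30.6% and 40.9% in mature RNA at 24 h, against 50.7% and 48.3% at 0 h, and 31.1% and 25.99% in nascent RNA at 24 h, against 50.0% and 52.4% at 0 h. In these 3 genes mature replicate 1 lay within the nascent range or within 0.5 points of it at 24 h.

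Rbm3 and Rps4x kept high shares in mature RNA. Rbm3, a cold-induced RNA-binding protein gene, had 55.2% and 55.3% in mature RNA at 24 h, against 60.13% and 60.04% at 0 h. In nascent RNA it had 42.7% (971 reads, interval 39.7 to 45.9%) and 40.2% (1574 reads, interval 37.8 to 42.7%) at 24 h, against 58.3% and 51.3% at 0 h. The 24 h mature libraries, whose medians over all 231 genes differed, nearly coincided here, and the difference was 0.48 ± 0.22. Rbm3 overlaps Rbm3os in the annotation. Rps4x, a gene for a protein of the small ribosomal subunit, had 54.8% and 59.7% in mature RNA at 24 h, against 67.2% and 66.8% at 0 h, and 48.4% and 44.4% in nascent RNA at 24 h, against 71.5% and 57.5% at 0 h. Its nascent 0 h libraries lay farther apart than its 24 h ones.

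Zfx, a zinc-finger transcription factor gene needed for embryonic stem cell self-renewal, had 25.3% and 37.1% in mature RNA at 24 h, against 52.2% and 47.3% at 0 h, and 23.9% and 24.9% in nascent RNA at 24 h, against 49.7% and 49.4% at 0 h. Renbp, which encodes N-acylglucosamine 2-epimerase, had 38.1% and 40.4% in mature RNA at 24 h and 32.5% and 42.3% in nascent RNA, so that the 24 h shares themselves overlapped. Lage3, a subunit gene of the KEOPS tRNA-modifying complex, had 38.9% and 44.7% in mature RNA at 24 h and 26.4% and 25.9% in nascent RNA at 24 h, against 57.1% and 30.9% in nascent RNA at 0 h. Its difference of 0.48 ± 0.64 rested on nascent 0 h A and was -0.29 without that library. The non-coding gene 4930519F16Rik, which overlaps Nap1l2, had 43.4% and 37.7% in mature RNA at 24 h and 27.2% and 31.3% in nascent RNA, with a difference of 0.43 ± 0.28.

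In the opposite direction, Morf4l2, which encodes a chromatin protein of the MRG family, had the largest difference of the genes within these limits, -1.21 ± 0.82. Its share was 3.71% and 14.7% in mature RNA at 24 h, against 34.8% and 39.2% at 0 h, and 15.2% and 15.8% in nascent RNA at 24 h, against 36.5% and 32.1% at 0 h. Replicate 1 alone lay far below the nascent libraries. BC065397, which overlaps Morf4l2, had 14.6% and 22.8% in mature RNA at 24 h and 27.4% and 28.0% in nascent RNA, with a difference of -0.57 ± 0.38. Reads of these overlapping genes may not be separable, since the sources used here do not say how they were counted.

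Gk, the glycerol kinase gene, had 13.7% and 22.4% in mature RNA at 24 h, against 54.5% and 57.0% at 0 h. In nascent RNA it had 25.8% (93 reads, interval 17.998 to 35.53%) and 29.5% (139 reads, interval 22.5 to 37.5%) at 24 h, against 59.9% and 56.3% at 0 h. Mature RNA retained 32.4% and nascent RNA 47.6% of the 0 h share, a difference of -0.66 ± 0.41. Hcfc1, a transcriptional co-regulator gene, had 30.1% and 38.1% in mature RNA at 24 h, against 48.9% and 48.2% at 0 h, and 50.5% and 41.7% in nascent RNA at 24 h, against 47.2% and 53.2% at 0 h. Brcc3, a gene for a deubiquitinating enzyme, had 40.4% and 47.5% in mature RNA at 24 h, against 53.1% and 52.6% at 0 h, and 50.0% and 47.3% in nascent RNA at 24 h, against 46.8% and 53.8% at 0 h. For Brcc3 both nascent shares at 24 h were within the range of its 0 h libraries, and for Hcfc1 1 of the 2 was.

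Brwd3, Ctps2, Acsl4, Lamp2 and Praf2 complete the group, with differences between -0.52 and -0.29. Brwd3, which encodes a bromodomain protein, had 30.2% and 34.8% in mature RNA at 24 h and 37.0% and 38.6% in nascent RNA. Lamp2, a lysosomal membrane protein gene, had 32.3% and 37.7% in mature RNA and 37.1% and 30.1% in nascent RNA, so that the 24 h shares overlapped. The cytidine triphosphate synthase gene Ctps2 had a 0 h share of 46.0% and 42.4% in mature RNA and of 28.6% and 33.9% in nascent RNA, so that its 24 h shares, 17.3% and 25.4% in mature and 17.4% and 18.6% in nascent RNA, do not show the order of the changes. For Acsl4, an acyl-CoA synthetase gene, and Praf2, a gene for a membrane protein of vesicle traffic, the difference was 0.01 and 0.21 without nascent 0 h A, against -0.50 ± 0.58 and -0.29 ± 0.46 with it.

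Of these 22 genes, 13 had a nascent fall that edgeR called, where 34.2% of the 231 genes and 0.793% of all genes did; 10 of the 22 were chosen for a nascent fall larger than the mature one, so the count is a description. Among the 13, Gpc3, Fhl1 and 4930519F16Rik kept the call in every alternative tried. The other 10 (Nr0b1, Hprt, Fmr1, Zfp185, Rps4x, Rbm3, Zfx, Morf4l2, Gk and Ctps2) lost it when at least 1 nascent library was left out.

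By function, each of the 12 gene lists compared held genes with a fall in nascent RNA, and none held a gene that rose or a gene called different between the assays. The counts below stand beside those of all 231 genes, of which 34.2% fell in nascent RNA (0.793% of all genes tested), 17.3% had both mature changes above both nascent ones (21.2% of all genes) and 14.3% below (26.6%), with median changes of -1.09 in mature and -1.14 in nascent RNA. The lists were described, not tested. For the lists, a fall in nascent RNA means a change called by edgeR after adjustment. A gene that was not called need not have kept its share, since only 6 of the 231 nascent changes lay above 0. Among the pluripotency and signalling regulators 9 of 15 measured genes fell in nascent RNA, with a median change of -1.57 in nascent and -1.48 in mature RNA. Klf8, a Krüppel-like transcription factor gene, had 8.18% and 20.9% in mature RNA at 24 h, against 46.5% and 47.6% at 0 h, and 15.8% and 13.7% in nascent RNA at 24 h, against 54.1% and 44.2% at 0 h. Klhl13, a substrate adaptor gene of a cullin ubiquitin ligase, stayed high, with 39.4% and 43.9% in mature RNA at 24 h, against 46.8% in both at 0 h, and 43.7% and 42.2% in nascent RNA at 24 h, against 56.2% and 54.2% at 0 h. Here 4 of the 15 genes had both mature changes above both nascent ones and 0 below.

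The metabolic enzymes had 14 of 26 genes with a fall in nascent RNA, the chromatin and transcription regulators 12 of 29, the mitochondrial proteins 3 of 11 and the ubiquitin pathway 4 of 16. Alg13, of protein N-glycosylation, had 33.4% and 41.0% in mature RNA at 24 h, against 55.0% and 57.8% at 0 h, and 32.9% and 32.7% in nascent RNA at 24 h, against 53.9% and 55.5% at 0 h. Atrx, a chromatin remodeller gene with 1228 and 1986 nascent reads at 24 h, had 22.3% and 33.5% in mature RNA at 24 h, against 48.3% and 47.3% at 0 h. Its nascent share was 29.0% and 28.2% at 24 h, against 52.5% and 48.0% at 0 h, and it lay between the mature libraries. For the ubiquitin ligase gene Huwe1 the share was higher in both mature libraries than in both nascent ones at 24 h, with 30.9% and 38.1% in mature RNA and 28.9% and 30.5% in nascent RNA. These shares are not set against 0 h.

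The RNA-binding and RNA-processing proteins had the highest median difference among the lists of 15 or more genes, 0.30, with 15 of 19 above 0, 9 genes whose mature changes lay above both nascent ones and 2 below. Of the 19, 6 fell in nascent RNA. Zrsr2, of minor-intron splicing, had 38.8% and 43.8% in mature RNA at 24 h, against 54.0% and 52.2% at 0 h, and 42.0% and 37.1% in nascent RNA at 24 h, against 56.4% and 56.5% at 0 h. Nono, a nuclear RNA-binding protein gene, had 22.3% and 32.5% in mature RNA at 24 h and 33.2% and 28.2% in nascent RNA, so that the 24 h shares overlapped. These shares are not set against 0 h and do not give the order of its changes. At 12 h 9 of 18 genes of this list lay above 0, where 69.9% of 226 X-linked genes did.

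The vesicle, membrane traffic and lysosome genes had the lowest median of the lists of 15 or more genes, -0.14, with 6 of 20 above 0, 2 genes above both nascent changes and 6 below. At 12 h, 13 of 19 of them lay above 0, where 69.9% of 226 X-linked genes did. Atp6ap2, of the vacuolar proton pump, had 43.8% and 45.7% in mature RNA at 24 h, against 51.6% and 50.0% at 0 h, and 41.4% and 40.8% in nascent RNA at 24 h, against 46.1% and 43.1% at 0 h. The cytoskeleton and cell division genes were near the middle, with 4 of 16 falling in nascent RNA and a median of 0.04. In Smc1a, a cohesin subunit gene, the share was 27.8% and 33.6% in mature RNA at 24 h, against 49.0% and 49.7% at 0 h, and 26.7% and 24.6% in nascent RNA at 24 h, against 47.5% and 45.5% at 0 h.

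Of 9 measured genes known to escape X inactivation in mouse, 2 fell in nascent RNA, and the median change was -0.51 in mature and -0.55 in nascent RNA. Kdm6a, a histone demethylase gene, had 48.3% and 55.6% in mature RNA at 24 h, against 51.4% and 54.7% at 0 h, and 50.4% and 46.8% in nascent RNA at 24 h, against 48.9% and 53.1% at 0 h. Its 24 h shares lay around its 0 h shares in both assays. Usp9x, a deubiquitinating enzyme gene, had 41.0% and 47.6% in mature RNA at 24 h, against 52.7% and 52.9% at 0 h, and 45.8% in both nascent libraries at 24 h, against 55.6% and 55.1% at 0 h. At the other end, 3 of 7 Armcx, Tceal and Mage family genes fell in nascent RNA, with median changes of -2.08 in mature and -1.83 in nascent RNA. Armcx1 had 11.2% and 26.2% in mature RNA at 24 h, against 48.0% and 48.8% at 0 h, and 14.3% and 15.2% in nascent RNA at 24 h, against 54.4% and 56.1% at 0 h.

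In 22 of the 231 genes the 0 h shares of the assays differed by more than 15 points, so the 24 h shares cannot be compared directly there. Firre, a long non-coding RNA gene, had 37.8% and 67.8% in mature RNA at 24 h, against 83.9% and 88.7% at 0 h, and 17.1% and 15.8% in nascent RNA at 24 h, against 49.0% and 48.7% at 0 h. Rpl10, a ribosomal protein gene, had 73.0% and 67.1% in mature RNA at 24 h, against 79.99% and 77.1% at 0 h, and 40.8% and 36.8% in nascent RNA at 24 h, against 56.6% and 48.9% at 0 h. Eif2s3x, a translation initiation factor gene, went the other way, with 10.7% and 10.6% in mature RNA at 24 h, against 14.0% and 15.7% at 0 h, and 40.1% and 41.1% in nascent RNA at 24 h, against 41.2% and 47.9% at 0 h. Whether the assignment of reads to alleles, few reads or something else made the gap at 0 h was not tested. Without the 22 the median difference at 24 h was 0.02, as with them.

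The difference between the assays was also set against gene properties, of which the mature RPKM and the PRO-seq reads at 24 h entered the selection. Its rho was 0.12 with the ratio of mature to nascent RPKM at 0 h, 0.12 with gene span and 0.04 with distance from Xist (231 genes each, all sharing the same 8 libraries). In 3 bins of 77 genes, from the lowest ratio of mature to nascent RPKM to the highest, the median was -0.07, 0.02 and 0.04. The bin with the shortest spans (up to 18.3 kb) had a median of -0.02 and the bin with the longest (52.1 kb or more) 0.06. Depth was related to the spread of the difference. The absolute difference had a rho of -0.32 with PRO-seq reads, and the interquartile range of the difference was 0.70 in the 87 genes under 100 mean reads and 0.43 in the others. Shares from fewer reads carry more counting error, so this relation is a description of the measurement. The changes themselves did not follow distance from Xist in 1 direction. In the nearest, middle and farthest bins of 77 genes the median was -1.08, -1.45 and -0.86 in mature RNA and -1.10, -1.44 and -0.89 in nascent RNA, with a rho of 0.28 and 0.23 over all genes.

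At 4, 8 and 12 h the median B6 share was higher in both mature libraries than in the 1 nascent library. These times were added after the 24 h result had been seen, and nascent RNA had 1 library at each, with no replicate. Among 226 genes with a share in all 22 undifferentiated libraries, the median B6 share at 4 h was 49.2% and 49.6% in mature RNA and 47.0% in nascent RNA. At 8 h it was 43.7% and 47.6% in mature RNA and 39.4% in nascent RNA, and at 12 h 37.7% and 43.9% in mature RNA and 34.5% in nascent RNA. At 24 h the nascent medians, 30.7% in both libraries, lay between the mature ones of 29.4% and 37.1%. Replicate 2, as numbered by tube order, had the higher mature median at 4, 8, 12 and 24 h.

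**Figure D4:**
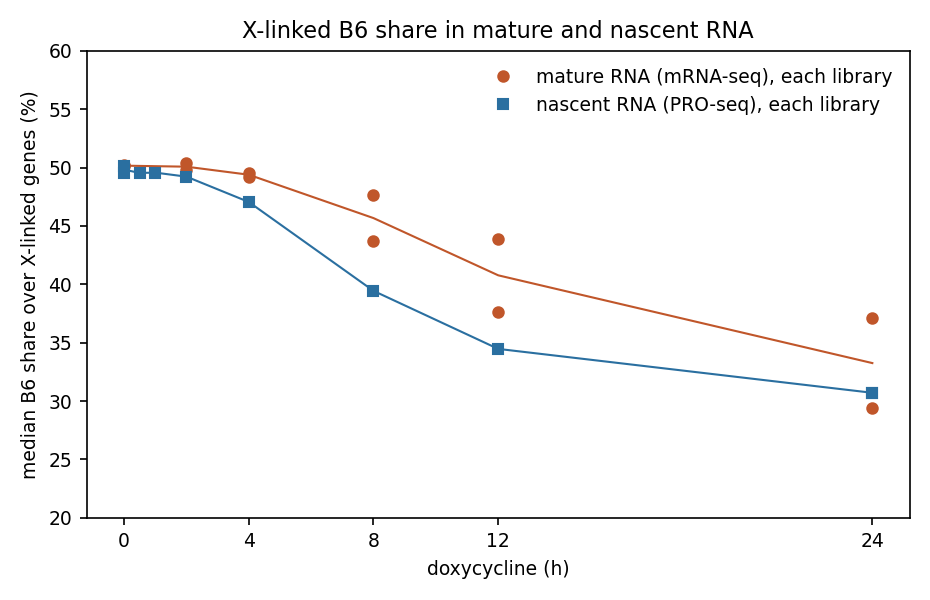
Median B6 share (%) of 226 X-linked genes against hours of doxycycline, with 1 circle per mature library and 1 square per nascent library, and lines through the means. At 8 and 12 h both mature libraries (43.7% and 47.6%, then 37.7% and 43.9%) lie above the nascent one (39.4%, then 34.5%), and at 24 h they lie on either side of it.

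In a fit of all 22 libraries, the median difference after 2, 4, 8, 12 and 24 h was -0.03, 0.10, 0.29, 0.29 and 0.03, and the autosomal medians were -0.02, 0.02, 0.02, 0.01 and -0.02. At 8 h 159 of 226 genes (70.4%) lay above 0, against 52.2% of autosomal genes, and at 12 h 158 (69.9%), against 51.0%. Both mature changes were above the nascent change in 138 genes (61.1%) at 8 h, against 42.2% of autosomal genes, and in 122 (54.0%) at 12 h, against 42.5%. The size differed by mature library, with medians of 0.13 for replicate 1 and 0.42 for replicate 2 at 8 h and of 0.05 and 0.49 at 12 h, and the fitted median was 0.15 without RNA 8 h replicate 2, 0.51 without RNA 12 h replicate 1 and 0.05 without RNA 12 h replicate 2. By limma 0 genes passed the adjusted threshold in either direction at 8 or 12 h (0.00% of all genes), with 3 and 2 higher and 0 lower at an unadjusted p of 0.05, where 1.25% and 0.963% of all genes were higher and 1.07% and 0.660% lower. The median standard error of a gene was 0.78 at 8 h and 0.91 at 12 h.

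**Figure D5:**
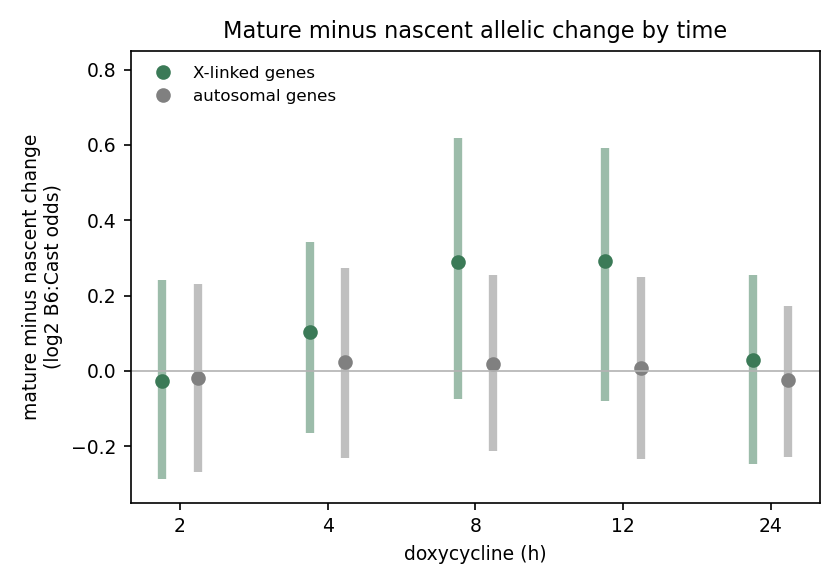
Mature change minus nascent change of the log2 B6:Cast odds for 226 X-linked genes (left of each pair) and 9020 autosomal genes (right) by hours of doxycycline; points are medians and bars the interquartile range over genes. The X-linked median is 0.29 at 8 and at 12 h and 0.03 at 24 h, while the autosomal medians stay between -0.02 and 0.02.

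Fmr1 had the widest gap of the named genes at 8 h. Its share was 43.5% and 45.0% in mature RNA and 17.3% in nascent RNA (110 reads, interval 11.3 to 25.4%), a difference of 1.88, and at 12 h it was 38.5% and 42.3% in mature RNA and 20.9% in nascent RNA. Pdha1, the gene for the alpha subunit of pyruvate dehydrogenase, was below an unadjusted p of 0.05 at both times. It had 60.7% and 60.9% in mature RNA and 41.4% in nascent RNA at 8 h, and 56.2% and 56.3% in mature RNA and 32.3% in nascent RNA at 12 h, differences of 0.68 and 0.96. At 24 h Pdha1 had 44.1% and 42.6% in mature RNA and 34.1% and 32.9% in nascent RNA. Hprt had 55.2% and 55.9% in mature RNA and 44.0% in nascent RNA at 12 h.

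The order of the assays at 24 h was not always that of earlier times. Gk had 41.7% and 50.2% in mature RNA and 37.3% in nascent RNA at 8 h, and Lamp2 had 41.6% and 45.3% in mature RNA and 26.8% in nascent RNA at 12 h. The values of Lamp2 are shares and are not set against 0 h. Nr0b1 had 31.1% and 41.5% in mature RNA and 22.1% in nascent RNA at 8 h, and 17.3% and 28.9% in mature RNA and 12.5% in nascent RNA at 12 h. Its 0 h shares were also higher in mature than in nascent RNA. The differences at 24 and 12 h had a rho of 0.18 across 226 genes, with the 0 h libraries shared. Both mature changes were above every nascent change at 8, 12 and 24 h in 20 of 226 genes (8.85%), against 8.99% of autosomal genes, and Fmr1, Gpc3, Fhl1, Rps4x, Rbm3, Zfx, Renbp, 4930519F16Rik, Hprt and Pdha1 were among them. All of these but Hprt and Pdha1 had been chosen for this order at 24 h, so their place here is a description.

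In mRNA-seq of TX1072 cells placed in differentiation conditions with doxycycline, 225 of the genes had a share in every library, and their median mature share began at 49.9% in both libraries without doxycycline. It was 42.4% and 42.2% after 8 h and 31.3% and 31.9% after 16 h. By 24 h it had reached 26.9% and 27.0%, and by 48 h 26.6% and 25.9%. The medians of replicates lay within 0.8 points of each other there. Hprt was at 39.4% and 38.8% at 24 h and 29.2% and 31.4% at 48 h, Gpc3 at 22.3% and 21.9% and then 14.2% and 14.7%, and Fmr1 at 28.8% and 28.2% and then 28.8% and 31.4%. Nr0b1 had reached 10.3% and 9.69% by 16 h. No nascent RNA was measured under these conditions in the files used here.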

How the data were processed

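The read counts per allele and gene, the B6 fraction and the RPKM of PRO-seq, and the RPKM and B6 fraction of mRNA-seq, are as deposited by the authors. Per the submitters' processing notes the tools were HTSeq 0.6.1, SAMtools, TopHat2 2.1.0, Bowtie 1.0.0 and cutadapt 1.8.2, with mm10; no source used here says how reads were divided between alleles or strands. Starts were shifted to count from 1.

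The log2 odds of the B6 share (0.01 added per allele) of the 8 libraries of 0 and 24 h were fitted with limma 3.58.1 (trend, robust), allele counts of nascent RNA with edgeR 4.0.16 (quasi-likelihood, terms for library, allele and allele by time), and DESeq2 1.42.0 was the alternative. P-values are two-sided and adjusted over all genes tested at 0.05. At 8 and 12 h, limma weighted each nascent value by its counting variance. That weighting was chosen after the data were seen, because the other weightings tried made false calls on simulated data with known answers. The simulated nascent shares held counting error alone, which is the error that the chosen weighting models. The simulation therefore could not decide which weighting suits the real libraries. Levels per allele are the share times RPKM, with 0.01 added before the log2.

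Nr0b1 and Hprt were named, then genes past the threshold (none), the 10 largest differences in each direction under the limits given with them, and members of each list with the most PRO-seq reads; those said to be below an unadjusted p were named after their values were seen. The genes and lists were chosen with earlier results of these data known. RNA tube series pair across times (15 correlations of deviations, 0.100 to 0.276); the PRO-seq letters do not (0.01).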

Additional observations from a re-analysis of the deposited data

Results flagged for a closer look

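In 3 genes both mature libraries of 24 h were below and both nascent libraries of 24 h above the mean log2 odds of their own 0 h libraries. For Ndufb11 and Pqbp1 nascent 24 h B was not above every nascent 0 h library. Armcx5 had 27.0% and 39.0% B6 in mature RNA at 24 h, against 47.6% and 48.5% at 0 h, and 35.7% and 34.3% in nascent RNA at 24 h, against 3 of 15 reads and 33.3% at 0 h, a mature minus nascent difference of -1.50 log2 units. Ndufb11 had 41.1% and 43.1% in mature RNA at 24 h, against 50.5% and 51.4% at 0 h, and 61.5% and 37.9% in nascent RNA at 24 h, against 15.8% and 50.0% at 0 h, a difference of -1.66. Pqbp1 had 35.8% and 37.4% in mature RNA at 24 h, against 45.1% and 47.2% at 0 h, and 50.0% and 33.8% in nascent RNA at 24 h, against 34.3% and 30.3% at 0 h, a difference of -1.13. Their limma adjusted p was 1.00 each. The nascent libraries held 13 to 65 reads per gene at 24 h and 15 to 35 at 0 h.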

How the results depend on the processing

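With no limit on reads or RPKM, 1 X-linked gene (Hmgn5, with 1 read in each 24 h PRO-seq library) had a higher change in mature RNA at 24 h, centred or not; under all other alternatives run, and without each of the 8 libraries in turn, 0 did. DESeq2 called 36 X-linked genes lower in nascent RNA (44 of 334 had no adjusted p), against 105 by edgeR, and leaving out a library gave 31 to 53. With all 12 RNA libraries 79 of 275 X-linked genes fell in mature RNA, against 0 of 283. At 12 h, equal weights called 1 gene higher (Ap1s2, 67 nascent reads at 12 h), against 0 with the weights used and 0 with library weights per assay; at 8 h each weighting called 0. With 1 library left out the difference ranged from -0.29 to 1.25 for Lage3, -1.01 to 0.0133 for Acsl4 and -0.78 to 0.21 for Praf2, and the nascent log2 change from -0.51 to 0.00331 for Hcfc1 and -0.31 to 0.0929 for Brcc3; the cause was not tested. The median 24 h difference was 0.28 without RNA replicate 1 and -0.23 without replicate 2, and the 8 h median 0.15 without RNA 8 h replicate 2. With a replicate block 0 genes passed for the 24 h difference, 0 in mature RNA and 100 in nascent RNA; it changed no other call of a count. The number of nascent reads limits single genes.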
